A study of Homo sapiens with 8 samples.

Results

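The BCL2 family comprises the proteins that decide whether the outer mitochondrial membrane is kept intact or opened during apoptosis. The 10 genes described here were taken by symbol from the deposited expression table, where all 10 were found among 63816 entries. Of these, 4 encode pro-survival proteins (BCL2, BCL2L1, BCL2L2 and MCL1), 2 encode members of the multidomain pore-forming or effector class (BAK1 and BOK), and 4 encode BH3-only proteins (BID, BCL2L11, BAD and BIK). RNA was sequenced in 8 libraries from cells labeled Caco-2, the name of an established human colorectal adenocarcinoma cell line. In 4 libraries the cells carried the empty expression vector pcDNA3.1 (the empty vector group), and in the other 4 the vector carried full-length SIGLEC12, which encodes Siglec-XII. Both populations had been transfected separately and kept under G418 selection, so every group shares the vector and the drug. The sources differ on what the libraries of a group are. The design text speaks of stable clones and of 3 cultures per condition, the methods speak of 3 technical replicate libraries per sample, and the labels list 4 libraries per group without tying any to a culture. Whether n = 4 stands for separate cultures is therefore unknown. The p-values measure the spread between libraries, which may be technical, and an effect of Siglec-XII and a difference between 2 separately selected populations cannot be told apart.

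As background, BAK1 (and its relative BAX) oligomerizes in the outer mitochondrial membrane and releases cytochrome c, which activates caspases through APAF1. Pro-survival proteins hold BAK1 and BAX in check by binding the BH3 helix of their partners in a surface groove. BH3-only proteins respond to stress signals and either occupy that groove or activate the effectors directly. In colon epithelium BCL2L1 (BCL-XL) and MCL1 are known as the main guards against cell loss. Much of the control of the family lies in protein turnover, cleavage and phosphorylation, which RNA levels do not measure.

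The BH3 core is the feature shared by all of these proteins, and its coding bases are shown because they identify the members. In each canonical GENCODE transcript the core was located as Leu or Met, 3 residues, Gly, Ala or Ser, and Asp. The 27 coding bases from its first codon are printed 5′ to 3′ on the strand of the gene, in GRCh37 coordinates, and the capitals mark the codons for the fifth and sixth residues, Gly-Asp in 9 of the 10.

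BCL2 (chr18:60985585-60985611, minus strand, exon 2 of 3): ctccgccaggccGGCGACgacttctcc
BCL2L1 (chr20:30309728-30309754, minus strand, exon 2 of 3): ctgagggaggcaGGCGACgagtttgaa
BCL2L2 (chr14:23777112-23777138, plus strand, exon 3 of 4): atgcgggcagctGGAGATgagttcgag
MCL1 (chr1:150551344-150551370, minus strand, exon 1 of 3): ttacgacgggttGGGGATggcgtgcag
BAK1 (chr6:33543167-33543193, minus strand, exon 4 of 6): ctcgccatcatcGGGGACgacatcaac
BOK (chr2:242499106-242501776, plus strand, exons 2 and 3 of 5): ctgctgcgcctgGGCGATgagctggag
BID (chr22:18222184-18222210, minus strand, exon 4 of 6): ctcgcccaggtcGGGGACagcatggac
BCL2L11 (chr2:111907680-111907706, plus strand, exon 3 of 4): ttgcggcgtattGGAGACgagtttaac
BAD (chr11:64039097-64039123, minus strand, exon 3 of 4): ctccggaggatgAGTGACgagtttgtg
BIK (chr22:43523722-43523748, plus strand, exon 3 of 5): ctggcctgcatcGGGGACgagatggac

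BID held 2 matches, and the one with Gly is shown. BAD was the member with Ser in place of Gly, and BCL2L2 the one that opened with Met. The printed bases of BOK were split by an intron. The capital bases took 7 forms among the 10 genes, the most frequent of which (GGGGAC) was shared by BAK1, BID and BIK. A second family signature, the residues Asn-Trp-Gly-Arg of the BH1 domain, was present in 5 of the proteins, namely the 4 pro-survival members and BAK1, and was not found in BOK or in the BH3-only proteins.

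The deposited values were log2(TPM + 1), a unit scaled for transcript length and library total, so levels of genes could be compared with each other, and sequencing depth is unknown. SIGLEC12 served to check the labels. It lay between 0.06 and 0.17 in the empty vector libraries and between 10.63 and 10.76 in the Siglec-XII libraries (exact permutation test, two-sided, p = 0.0286, which is the lowest attainable with groups of 4). Of 13 colon epithelial markers 7 passed the filter of at least 1 TPM in at least 4 libraries. CDX1 (7.01 to 7.38), CDX2 (5.13 to 5.64), EPCAM (9.05 to 9.20) and the keratins KRT8 and KRT18 were abundant. In contrast, KRT20 was listed at 0 in all libraries, CDH17 did not exceed 0.41 and HNF4A did not exceed 0.23. VIL1, GPA33 and LGALS4 did not pass either, with means of 0.69, 0.58 and 0.42. Of 13 trophoblast markers 10 passed, among them GATA3 (8.37 to 8.91), HSD3B1 (8.31 to 8.53), KRT7 (7.65 to 8.15) and TFAP2C. CGA, ERVW-1, ERVFRD-1 and PSG1 passed at low levels, with means of 0.79, 1.26, 1.11 and 1.12. CGB3, CGB5 and GCM1 did not pass. Of 5 leukocyte markers 1 passed. Of the 5 fibroblast and endothelial markers 2 passed, COL1A1 (5.42 to 5.91) and COL3A1. Of the listed colon markers some were thus abundant, CDX1 and CDX2 among them, and others, such as KRT20, HNF4A and VIL1, stayed under the filter. From the trophoblast list GATA3, HSD3B1, KRT7 and TFAP2C were abundant as well. The name Caco-2 therefore rests on the labels, which these markers bear out only in part. The identity of the line was not tested. No tested marker passed an adjusted p of 0.05 between the groups by limma. At an unadjusted p under 0.05, 6 of the 7 colon markers, 1 of the 10 trophoblast markers and COL1A1 had a higher level with Siglec-XII. The share of all tested entries higher at that level was 13.9%. The median difference over the 7 colon markers was 0.17 beside 0.07 over all tested entries, and the part of these markers in the members' values was not tested. As in any bulk sample, fewer cells expressing a gene and less RNA per cell cannot be told apart.

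The repertoire was led by pro-survival transcripts. BCL2L1 was the most abundant member in every library, with a mean of 177 TPM over the 8 libraries, and stood above 94.2% of the 15590 tested entries. MCL1 followed at 85.1 TPM. The next were BID (58.5 TPM), BAD (46.3 TPM), BAK1 (29.0 TPM) and BIK (23.3 TPM), and then BCL2L2 (15.6 TPM), BOK (12.4 TPM) and BCL2L11 (10.8 TPM). BCL2, the founding member, was near the floor at 0.356 TPM. The steps from BCL2L1 to MCL1, from MCL1 to BID and from BCL2L11 down to BCL2 left no overlap between the ranges of the 8 libraries. BAD stayed above BAK1, BAK1 above BIK and BIK above BCL2L2 in 8 of 8 libraries, although the ranges of these neighbors overlapped. BID exceeded BAD in 7 of 8, BCL2L2 exceeded BOK in 7 of 8, and BOK exceeded BCL2L11 in only 5 of 8, so the last pair could not be ordered.

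**Figure D1:**
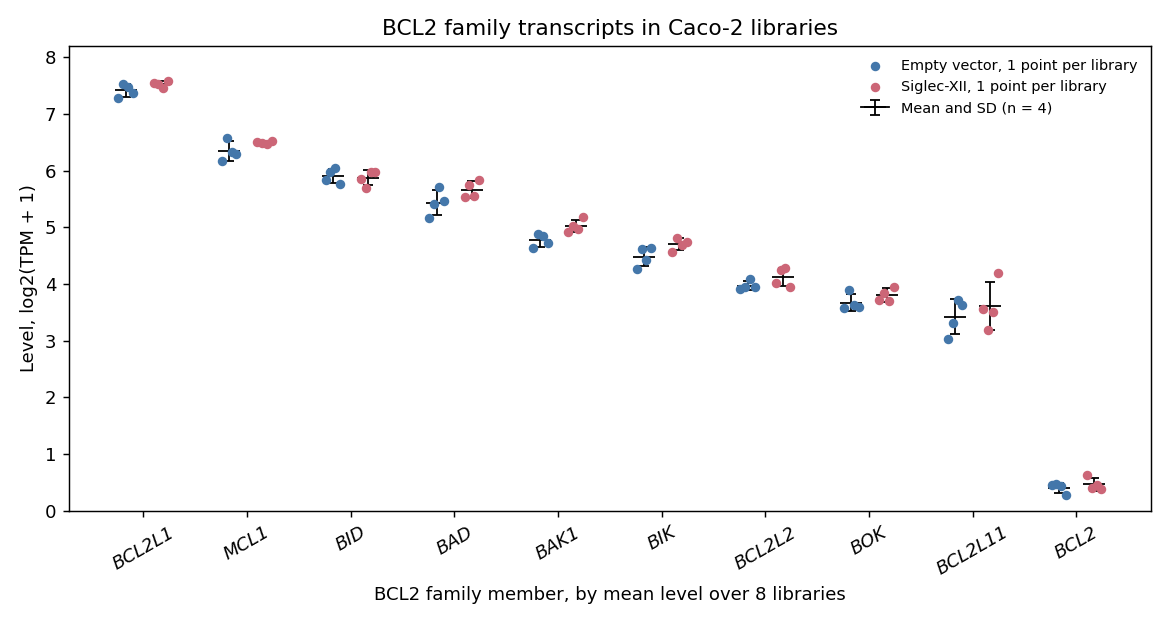
Level of each of the 10 members as log2(TPM + 1) (y axis) by gene (x axis, ordered by mean over 8 libraries), with 1 point per library and the mean and SD of 4 libraries in black, empty vector in blue and Siglec-XII in red. BCL2L1 and MCL1 stand highest and BCL2 does not exceed 0.63 in any library. The red and blue points overlap for every member except BAK1.

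Whether the family differed with Siglec-XII was asked with limma on log2(TPM + 1), adjusted by Benjamini-Hochberg over all 15590 tested entries. Of the 10 members 9 passed the filter and 0 had an adjusted p under 0.05, where 0.648% of all tested entries did. At an unadjusted p under 0.05 there were 2 members, BAK1 and BIK, against 16.5% of all tested entries. BAK1 was the 1 member whose groups did not overlap, with the Siglec-XII libraries above, a pattern held by 9.17% of tested entries, whereas 0 members were separated in the other direction, which 1.68% of tested entries were. Of the 9 members 8 had a higher mean with Siglec-XII, in a table where 68.1% of tested entries did, and the median difference over the 9 was 0.15 beside 0.07 over all tested entries. The counts of 0, 2 and 1 among 9 genes were close to those background shares.

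**Figure D2:**
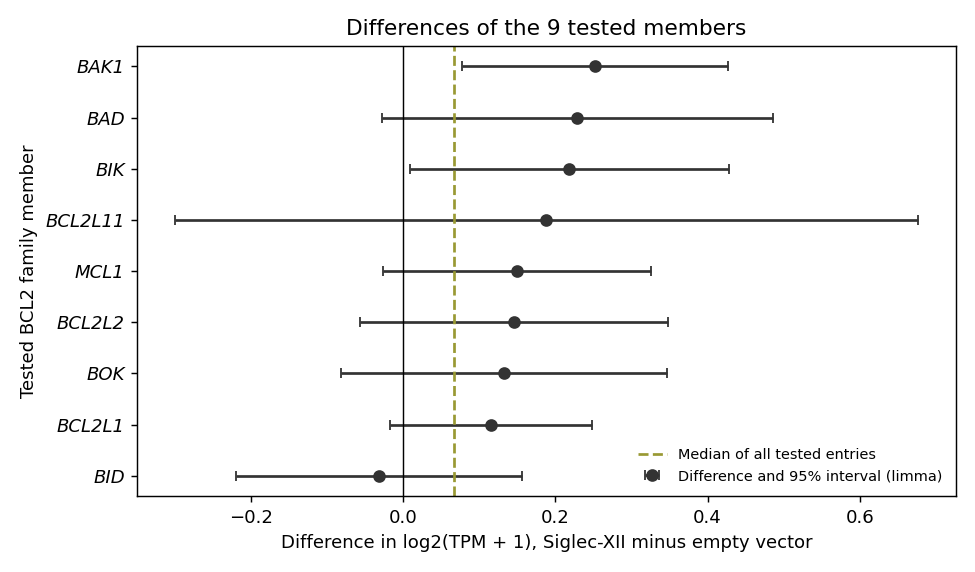
Difference in log2(TPM + 1) between the Siglec-XII and empty vector means (x axis) for each tested member (y axis), with the 95% limma interval as a bar, the solid line at 0 and the dashed line at the median of all tested entries. BAK1 lies farthest to the right at 0.25, BID is the only point left of 0, and BCL2L11 has the widest interval.

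Among the effectors, BAK1 (ENSG00000030110), a pore-forming protein that resides in the outer mitochondrial membrane, measured 4.63, 4.87, 4.84 and 4.73 in empty vector replicates 1 to 4. In Siglec-XII replicates 1 to 4 it measured 4.92, 5.02, 4.97 and 5.18. All 4 Siglec-XII libraries lay above the highest empty vector library, though by as little as 0.05. The means were 4.77 ± 0.11 and 5.02 ± 0.11 (SD, n = 4), a difference of 0.25 with a 95% interval from 0.08 to 0.43 and a limma adjusted p of 0.170. In TPM the means were 26.3 ± 2.10 and 31.6 ± 2.61 (SD, n = 4). BOK (ENSG00000176720), a BAK1 relative found largely at the endoplasmic reticulum and known for rapid turnover of its protein, measured 3.57, 3.89, 3.62 and 3.60 in empty vector replicates 1 to 4 and 3.72, 3.85, 3.70 and 3.95 in Siglec-XII replicates 1 to 4. Empty vector replicate 2 exceeded 3 of the 4 Siglec-XII libraries, and the difference was 0.13 (limma adjusted p = 0.518).

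Of the pro-survival members, BCL2L1 (ENSG00000171552) measured 7.28, 7.54, 7.47 and 7.37 in empty vector replicates 1 to 4 and 7.55, 7.53, 7.47 and 7.58 in Siglec-XII replicates 1 to 4. The groups overlapped, and the difference of 0.12 had a 95% interval from -0.02 to 0.25 (limma adjusted p = 0.360), which corresponds to a ratio of at most 1.19 on the TPM + 1 scale. The long (pro-survival) and short (pro-apoptotic) splice forms of BCL2L1 are joined in the single gene entry. MCL1 (ENSG00000143384), a short-lived protein whose level follows its synthesis closely, measured 6.17, 6.58, 6.33 and 6.30 in empty vector replicates 1 to 4 and 6.50, 6.49, 6.47 and 6.53 in Siglec-XII replicates 1 to 4. Its Siglec-XII values were tightly grouped (6.50 ± 0.02 against 6.35 ± 0.17, SD, n = 4) and all lay below empty vector replicate 2. The MCL1 difference was 0.15, with an interval from -0.03 to 0.33 (limma adjusted p = 0.374).

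BCL2L2 (ENSG00000129473), encoding BCL-W, measured 3.91, 3.94, 4.10 and 3.95 in empty vector replicates 1 to 4 and 4.02, 4.24, 4.27 and 3.95 in Siglec-XII replicates 1 to 4. Replicates 2 and 3 of Siglec-XII were high and the other 2 lay among the empty vector libraries (difference 0.15, limma adjusted p = 0.449). A readthrough entry, BCL2L2-PABPN1, shares exons with this gene, and it ranged from 1.09 to 3.25 over the libraries. With the readthrough entry added on the TPM scale, an alternative added once the values were known, the BCL2L2 difference was 0.12 (limma adjusted p = 0.618). BCL2 (ENSG00000171791) did not pass the filter. It stood at 0.370, 0.379, 0.352 and 0.209 TPM in empty vector replicates 1 to 4 and at 0.550, 0.316, 0.367 and 0.303 TPM in Siglec-XII replicates 1 to 4. The BCL2 groups overlapped, and at under 1 TPM in every library a change of this gene was not measurable with confidence.

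The differences of the 4 BH3-only members ran from -0.03 to 0.23. BIK (ENSG00000100290), a BH3-only protein located mainly at the endoplasmic reticulum, measured 4.27, 4.61, 4.43 and 4.63 in empty vector replicates 1 to 4 and 4.56, 4.81, 4.69 and 4.75 in Siglec-XII replicates 1 to 4. Siglec-XII replicates 2, 3 and 4 exceeded the highest empty vector library, and the difference was 0.22 with an interval from 0.01 to 0.43 (limma adjusted p = 0.287). BAD (ENSG00000002330), which is inactivated by phosphorylation under growth factor signaling, measured 5.16, 5.41, 5.70 and 5.47 in empty vector replicates 1 to 4 and 5.53, 5.74, 5.55 and 5.84 in Siglec-XII replicates 1 to 4. Empty vector replicate 3 sat above 2 of the Siglec-XII libraries, and the BAD difference was 0.23 (interval -0.03 to 0.49, limma adjusted p = 0.354).

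BCL2L11 (ENSG00000153094) encodes BIM, which binds all pro-survival members and is a known target of ERK-driven degradation. It measured 3.03, 3.32, 3.71 and 3.63 in empty vector replicates 1 to 4 and 3.56, 3.18, 3.51 and 4.19 in Siglec-XII replicates 1 to 4. Siglec-XII replicate 4 was the highest and the other 3 Siglec-XII libraries fell inside the empty vector range. The BCL2L11 difference was 0.19 with the widest interval of the members, from -0.30 to 0.68 (limma adjusted p = 0.706), and was -0.0044 without Siglec-XII replicate 4. BID (ENSG00000015475), the link from caspase-8 to mitochondria, measured 5.83, 5.97, 6.05 and 5.76 in empty vector replicates 1 to 4 and 5.86, 5.69, 5.97 and 5.97 in Siglec-XII replicates 1 to 4. Its groups interleaved (difference -0.03, interval -0.22 to 0.16, limma adjusted p = 0.886).

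Single libraries stood apart for many members at once. Empty vector replicate 1 was the lowest library of its group for 8 of the 9 tested members, BID being the exception, where it was lowest for 41.8% of all tested entries. Its median deviation from the 8-library mean was -0.25 over the members and -0.09 over all tested entries. Siglec-XII replicate 4 was the highest of its group for 6 of the 9 members, against 34.6% of all tested entries. The median deviation of this library was 0.15 over the members and 0.06 over all tested entries. The same 2 libraries were at the ends of the mitochondrially encoded share of TPM, 11.2% in empty vector replicate 1 and 6.67% in Siglec-XII replicate 4, and with mitochondrially encoded and the most abundant entries left out the BAK1 difference was 0.21 (limma adjusted p = 0.276), with 0 members called. Without empty vector replicate 1 the differences were 0.20 for BAK1, 0.15 for BIK, 0.14 for BAD, 0.09 for MCL1, 0.07 for BCL2L1 and 0.06 for BCL2L11, and 0 members had an adjusted p under 0.05. Those of BAD, MCL1, BCL2L1 and BCL2L11 were smaller by more than 1.5 times when this 1 library was left out, and that of BID was -0.06. Other libraries moved differences by over 1.5 times in both directions. Without empty vector replicate 2 MCL1 was at 0.23 (limma adjusted p = 0.0832) and BOK at 0.21 (limma adjusted p = 0.231). BOK was at 0.08 without Siglec-XII replicate 4, and BCL2L2 at 0.09 without Siglec-XII replicate 3. BCL2L11 reached 0.28 without empty vector replicate 3 and 0.33 without Siglec-XII replicate 2.

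**Figure D3:**
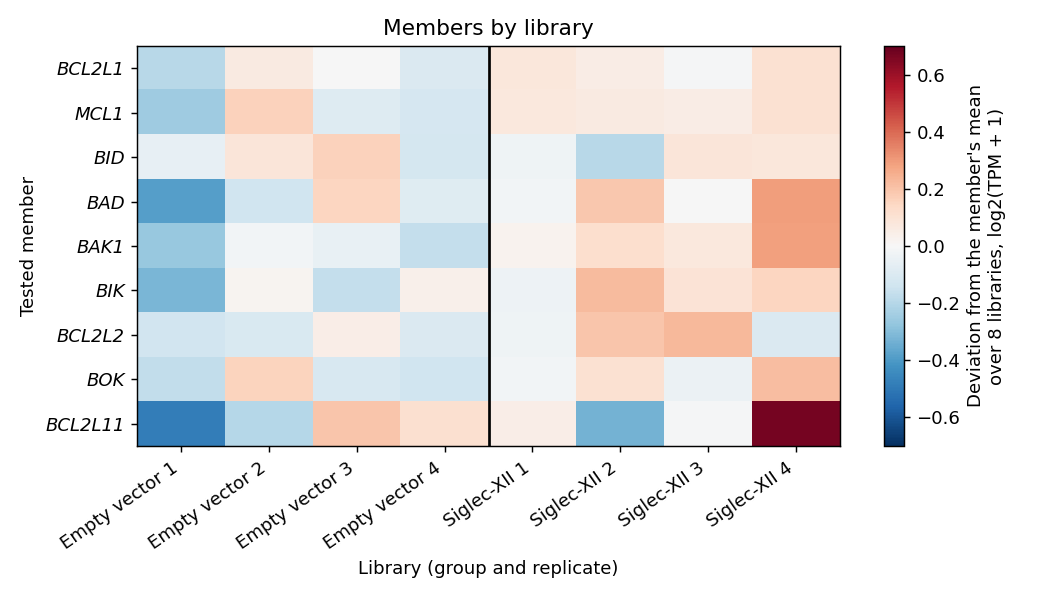
Deviation of each tested member (rows) in each library (columns) from that member's mean over 8 libraries, on the log2(TPM + 1) scale, with blue below and red above the mean and the black line between the groups. The column of empty vector replicate 1 is blue throughout, and the deepest red is BCL2L11 in Siglec-XII replicate 4.

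Summed by class, the pro-survival transcripts made up 240, 294, 272 and 257 TPM in the empty vector libraries and 292, 290.2, 282 and 296 TPM in the Siglec-XII libraries. Empty vector replicate 2 reached the Siglec-XII range and the other 3 lay below it. BCL2L1 held 62.3% to 64.7% of this sum and MCL1 29.2% to 32.3% in every library, so the make-up of the pro-survival pool was nearly constant. In the same order of groups the effector sum was 38.1 ± 3.26 and 44.6 ± 3.72 TPM (SD, n = 4), and the BH3-only sum was 133 ± 13.5 and 144 ± 11.5 TPM (SD, n = 4). The ratio of pro-survival to all other members was 1.55 ± 0.0880 and 1.54 ± 0.104 (SD, n = 4), and its groups overlapped. These values depend on which effectors are counted. With BAX, which is not among the 10, added once the values were known, the effector sum was 133 ± 4.17 and 136 ± 11.1 TPM and the ratio 0.998 ± 0.0716 and 1.03 ± 0.0374 (SD, n = 4), again with overlapping groups. These sums are descriptions of RNA and were not tested.

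**Figure D4:**
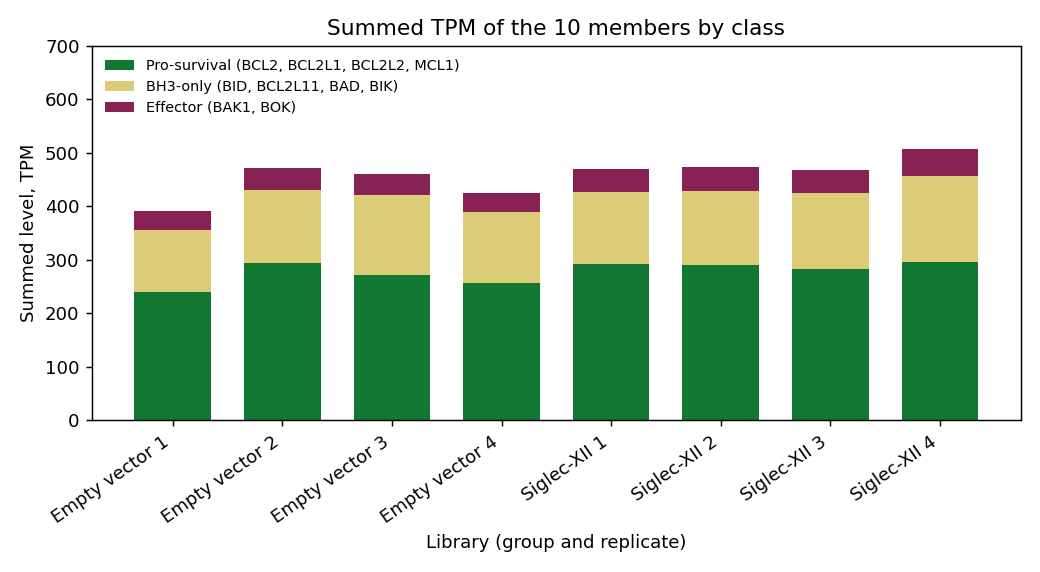
Summed level of the 10 members in TPM (y axis, from 0) in each library (x axis), stacked as pro-survival (green), BH3-only (yellow) and effector (purple). The green part is the largest in every library, from 240 to 296 TPM, and empty vector replicate 1 has the shortest column.

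The rest of the apoptosis machinery was read from 7 lists of 65 genes, of which 59 passed the filter. By limma 0 of the 59 had an adjusted p under 0.05, and without adjustment 16 were higher and 1 lower at that level, where 13.9% of all tested entries were higher and 2.61% lower. The median difference over the 59 was 0.10 beside 0.07 over all tested entries. Of the 13 other BCL2 family genes 9 passed, and the effector BAX, at 6.58 ± 0.10 in empty vector and 6.53 ± 0.17 in Siglec-XII libraries (SD, n = 4), stood above BAK1 in each library. The stress-induced BH3-only genes BBC3 (PUMA) and PMAIP1 (NOXA) had lower levels. BBC3 was at 2.13 ± 0.15 and 2.22 ± 0.22, and PMAIP1 at 3.11 ± 0.20 and 3.32 ± 0.10 (SD, n = 4), in the same order of groups. BCL2A1, BCL2L14, BCL2L15 and HRK did not pass. BNIP3L, a mitophagy receptor, was the 1 family gene of this list without overlap, at 4.97 ± 0.25 and 5.26 ± 0.05 (SD, n = 4, limma adjusted p = 0.247). Of all tested entries 9.17% were higher without overlap, so 1 of the 9 tested genes was close to that share. The BNIP3L difference was 0.28, and 0.17 without empty vector replicate 2, the lowest library at 4.63.

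All 11 apoptosome and caspase genes passed the filter, with a median difference of 0.10. None of the 7 inhibitors of apoptosis and their antagonists and none of the 8 tested death receptor genes was separated between groups. Of the 10 VDAC channels and binding partners 3 lay higher and 1 lower without overlap, beside 9.17% and 1.68% of all tested entries. TMBIM6 (BAX inhibitor 1) had 9.17 ± 0.09 and 9.42 ± 0.09 (SD, n = 4, limma adjusted p = 0.110). BAG3, a co-chaperone, had 5.57 ± 0.11 and 5.82 ± 0.05 (SD, n = 4, limma adjusted p = 0.109), which was 0.0438 without empty vector replicate 2. BECN1, an autophagy protein that binds BCL2 through its own BH3 segment, was the gene with the lower level, at 5.96 ± 0.08 and 5.74 ± 0.02 (SD, n = 4, limma adjusted p = 0.104).

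Of the 4 tested enzymes of MCL1 turnover, FBXW7, which recruits phosphorylated MCL1 to a ubiquitin ligase, had 4.65 ± 0.06 and 4.99 ± 0.19 (SD, n = 4, limma adjusted p = 0.136). The FBXW7 groups were separated by 0.03, and 9.17% of all tested entries were higher without overlap. MCL1 RNA overlapped between the groups, and MCL1 protein was not measured here. Of the 10 transcription factors known to act on the family 1 was higher without overlap, close to the 9.17% of all tested entries. That gene was FOXO3, known to drive BCL2L11, at 3.44 ± 0.03 and 3.67 ± 0.05 (SD, n = 4, limma adjusted p = 0.148). BCL2L11 itself overlapped between the groups, and a link between the 2 genes was not tested.

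**Figure D5:**
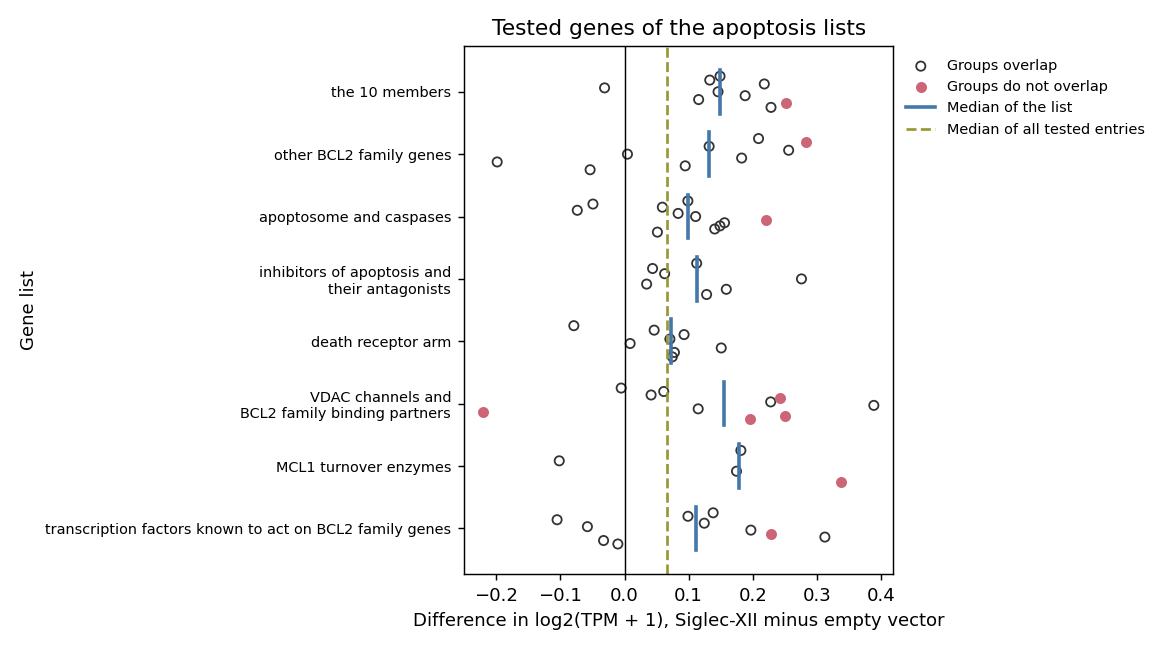
Difference in log2(TPM + 1), Siglec-XII minus empty vector (x axis), for each tested gene of the 10 members and of the 7 apoptosis lists (y axis), with filled points where the groups did not overlap, a blue bar at the median of each list and a dashed line at the median of all tested entries. Most points lie between -0.2 and 0.4, and BECN1 is the 1 filled point left of 0.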

How the data were processed

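Per the file headers and the study's methods, the authors quantified reads with kallisto against hg19. The version was 0.45.0 per the submitters' processing notes, whereas the study's methods name an earlier version and also gene counting with featureCounts. The authors deposited 1 table of log2(TPM + 1), 1 column per library, each summing to 1000000 TPM. Read counts, depth and counting intervals are therefore unknown. The labels name a total RNA kit and the methods an mRNA kit. The values were used without further scaling. Of repeated symbols the entry with the highest mean was taken. Groups were compared over the 15590 entries at 1 TPM or more in at least 4 of 8 libraries with limma 3.58.1 in R 4.3.3 (lmFit, eBayes with trend, Benjamini-Hochberg), tested on simulated data. The count model of the study's methods could not be used on this unit. SIGLEC12 was compared by an exact permutation test (scipy 1.17.1). Positions and transcripts came from GENCODE lifted to GRCh37. Figures used matplotlib 3.10.9.

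The members and gene lists were chosen with earlier results of these data known. Named pathway genes were any with an adjusted p under 0.05 and, per list, the 2 highest and 2 lowest with an unadjusted p under 0.05 and no overlap. Other BCL2 family genes and markers are named by level. Alternatives were other pseudocounts, filters and scalings, no trend, array weights, the replicate block and each library left out. A pathway gene named by this rule is not reported here.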

Additional observations from a re-analysis of the deposited data

Results flagged for a closer look

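Of 34 groups of 4 looked at, 2 held a library far from the other 3 by Dixon's ratio, which chance gives in about 1 in 20. BCL2 was at 0.27 on the log2(TPM + 1) scale in empty vector replicate 4, below the other 3 (gap over range 0.849), at a level under 1 TPM in all libraries. TMBIM6 was at 9.55 in Siglec-XII replicate 4, above the other 3 (gap over range 0.906).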

How the results depend on the processing

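The number of members with an adjusted p under 0.05 was 0 under all 17 other settings. In the apoptosis lists it was 0 except without empty vector replicate 2, where it was 1 (BAG3), giving a range of 0 to 1 over the fits that left out 1 library. The count over the whole table was 101 and became 51 with no filter, 54 with no trend and 69 with the replicate block, and ran from 49 to 159 with 1 library left out. Every one of the 8 libraries moved it by over 1.5 times: 159 without empty vector replicate 2, and 49 to 64 without any of the other 7. Same-numbered libraries did not deviate together (correlations of -0.0742 to 0.0591 across entries), so the numbers were not read as pairs, and the replicate block called 0 members. With 1 library left out, the difference of BID ran from -0.078 to 0.029 and that of BCL2L11 from -0.0044 to 0.33, and both changed sign. BID was at 0.018 without empty vector replicate 3 and at 0.029 without Siglec-XII replicate 2, and BCL2L11 at -0.0044 without Siglec-XII replicate 4. The cause was not tested. The other tested members kept their direction and stayed short of the threshold in every alternative, and the adjusted p of BAK1 ran from 0.120 to 0.364. With quantile normalization the median difference of all tested entries was 0.0095 in place of 0.07 and 0 members were called, while the differences moved by over 1.5 times for BCL2L1 (0.054), BOK (0.067), BCL2L2 (0.082), MCL1 (0.088), BCL2L11 (0.12) and BID (-0.097). Equal upper quartiles moved the same genes but BCL2L11 by over 1.5 times. Leaving out mitochondrially encoded and the most abundant entries gave 0.070 for BCL2L1 and -0.077 for BID. Array weights gave 0.043 for BCL2L11, 0.15 for BAD and -0.077 for BID. Depth behind a TPM value is unknown, which limits low genes such as BCL2.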
